A study of Rattus norvegicus with 6 samples.

Results

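CC chemokines are small secreted proteins, named for a pair of adjacent cysteines, that draw leukocytes up a gradient by acting on G protein-coupled receptors. Fractalkine, the product of Cx3cl1, is a chemokine carried on a membrane stalk from which it can be shed, and its receptor Cx3cr1 is best known on microglia and monocytes. In stromal cells several of these genes are induced through toll-like receptor 4 and NF-kB, with Ccl2 and Ccl7 acting on monocytes through Ccr2, Ccl20 on Ccr6-bearing lymphocytes and dendritic cells, Ccl5 on T cells and monocytes, and Ccl11 on eosinophils through Ccr3.

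The genes described here were 7 symbols, Ccl2, Ccl5, Ccl7, Ccl11, Ccl19, Ccl20 and Cx3cl1, looked up by name in a table of 19266 genes. 6 of them had a row, and Ccl19 was not analysed here. Poly(A)-selected RNA was sequenced from 6 libraries of the wild-type rat bone marrow mesenchymal stem cell line SCSP-402. Both groups were co-cultures of these cells with BV2, a microglial line from mouse. 3 libraries came from co-cultures without further stimulus (untreated) and 3 from co-cultures given lipopolysaccharide (LPS), the bacterial cell wall component sensed by toll-like receptor 4, at a dose and for a time that the labels do not state. The series asked how the stem cells restrain microglial activation. Nothing in the labels says whether replicates were separate cultures, so the p-values cover differences among the libraries as prepared, possibly technical ones, and all of them come from 1 cell line and 1 labelled batch.

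Depth was even, at 19.3 to 20.5 M fragments per library, if 4 units of the deposited counts are taken as 1 fragment. Untreated replicate 1 stood apart from the other untreated libraries for many genes, so values are also given without it. Ribosomal RNA took between 0.0961% and 0.199% of the counts in the untreated libraries and between 0.129% and 1.36% in the LPS libraries, and its part in the results was not tested. The 13 mesenchymal stromal markers set beside the stem cell label were all in the table. They summed to between 22510 and 24058 FPKM (fragments per kilobase per M fragments, as deposited) in untreated co-cultures. In LPS co-cultures they summed to between 18655 and 18801 FPKM. Most of the sum was Col1a1 (means of 9678 and 7517 FPKM), Col1a2 (8032 and 5412) and Vim (4237 and 3838). It therefore cannot tell stem cells from other cells rich in these RNAs. Lepr lay below the expression filter, at 0.132 ± 0.0422 and 0.142 ± 0.0587 FPKM in untreated and LPS co-cultures (SD, n = 3). Of 16 microglia and macrophage markers in the table, 13 lay below the expression filter and together reached 0.799 to 1.56 FPKM in untreated and 1.22 to 1.51 FPKM in LPS co-cultures. The leukocyte marker Ptprc was at 0 in all LPS libraries, as were C1qa, C1qb and Trem2, and Aif1 was at 0 in all untreated libraries. The 3 others, Tmem119 and Fcer1g among them, did not pass the test. Tmem119, also a gene of bone-forming cells, stood at 64.7 ± 2.14 and 69.4 ± 1.195 FPKM (SD, n = 3). Whole-list sums of microglial markers ran from 85.9 to 91.3 FPKM in untreated and from 90.7 to 117 FPKM in LPS libraries. Fcer1g raised the upper end, at 27.4 FPKM in LPS replicate 1 against 2.29 and 2.98 FPKM in LPS replicates 2 and 3. BV2 is a mouse line and the rows are rat genes, so these values cannot show how much microglial RNA was present. Of endothelial and of lymphoid or erythroid markers none reached the filter, with sums of at most 0.817 and 0.0730 FPKM. The most abundant were Tek (0.655 ± 0.0983 and 0.248 ± 0.0346 FPKM) and Hba-a1 (0.0272 ± 0.0399 and 0.0401 ± 0.0368 FPKM).

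Promoter sequences are shown for the 3 measured genes that passed the expression filter and have an entry in the RefSeq promoter table used, Ccl7, Ccl20 and Cx3cl1, because their RNA rose with LPS. Each is the 250 bases before the annotated start on the gene's own strand, 5′ to 3′, in build GRCr8. Capitals mark matches to the kappaB consensus of NF-kB, the AP-1 motif TGANTCA, the C/EBP motif TTNNGCAA (all on both strands) and the TATA box TATAAA (gene strand). The windows are chr10:67513845-67514094 (plus strand) for Ccl7, chr9:91836909-91837158 (plus strand) for Ccl20 and chr19:10242821-10243070 (minus strand) for Cx3cl1.
Ccl7: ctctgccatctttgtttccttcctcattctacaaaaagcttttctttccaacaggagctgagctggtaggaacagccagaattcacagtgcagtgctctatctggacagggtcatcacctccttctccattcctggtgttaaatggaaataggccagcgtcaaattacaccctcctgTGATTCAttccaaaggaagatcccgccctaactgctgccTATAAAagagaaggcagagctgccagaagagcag
Ccl20: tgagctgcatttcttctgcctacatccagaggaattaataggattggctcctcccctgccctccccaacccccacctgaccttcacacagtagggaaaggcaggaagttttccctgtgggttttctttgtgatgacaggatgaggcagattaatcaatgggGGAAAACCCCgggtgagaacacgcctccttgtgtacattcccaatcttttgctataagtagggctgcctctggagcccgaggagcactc
Cx3cl1: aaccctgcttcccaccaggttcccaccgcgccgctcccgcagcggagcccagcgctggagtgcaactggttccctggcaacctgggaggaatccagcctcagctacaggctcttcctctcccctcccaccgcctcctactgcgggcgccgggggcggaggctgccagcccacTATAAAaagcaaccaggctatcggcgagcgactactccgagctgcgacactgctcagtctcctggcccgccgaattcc

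In the Ccl20 window the kappaB consensus matched once, on the opposite strand, at positions -89 to -80, where -1 is the base before the start. In the Ccl7 window an AP-1 match lay at -73 to -67, the same site on either strand, and a TATA box at -34 to -29. The Cx3cl1 window held a TATA box at -78 to -73 and no other match. Over all 33469 promoters of the table, windows of this length held the kappaB consensus in 3.54% of cases, the AP-1 motif in 6.34%, the C/EBP motif in 9.22% and the TATA box in 8.06%. No matches overlapped in the 3 windows shown, and none was to the C/EBP motif. These matches describe letters in the sequence and are not evidence of binding. Ccl2, Ccl5 and Ccl11 are named without a promoter.

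With LPS, the co-cultures held more RNA of the monocyte attractants Ccl2 and Ccl7, of the Ccr6 ligand Ccl20 and of Cx3cl1. Ccl2 reached 565 ± 16.6 FPKM and Ccl7 323 ± 11.2 FPKM (SD, n = 3), while Cx3cl1 stayed near 1 FPKM. Ccl5 was detected in all LPS libraries and in none of the untreated ones, at a low level. Ccl11 was low in both groups, and its values overlapped. In RNA pooled over many cells, more cells of a type and more RNA per cell cannot be told apart.

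Every gene that reached 1 FPKM in 3 or more of the 6 libraries entered edgeR's quasi-likelihood test on the estimated counts. The p-values were adjusted by the Benjamini-Hochberg method over the 11559 genes tested, with 0.05 as the threshold. 4 of the 6 genes passed the expression filter, and each of those 4 was higher with LPS, where 20.1% of all tested genes were called higher and 19.0% lower. Of all calls, 51.3% were higher by edgeR and 63.3% by limma on the deposited FPKM. That share fell to 44.3% once the top 50 genes by abundance were dropped from the library sizes. It was 44.7% by limma after quantile normalization. Whether more genes were called higher or lower thus depended on the normalization. The groups did not overlap in FPKM, with LPS higher, for the same 4 genes and for 32.8% of all tested genes. The filter favours genes that are high in 1 group, so the count of 4 among those that passed it says little by itself. These genes and the lists below were also chosen with earlier results of these data known, which limits how their counts can be read against these shares. Cx3cl1, for one, reached 1 FPKM in LPS libraries alone.

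**Figure D1:**
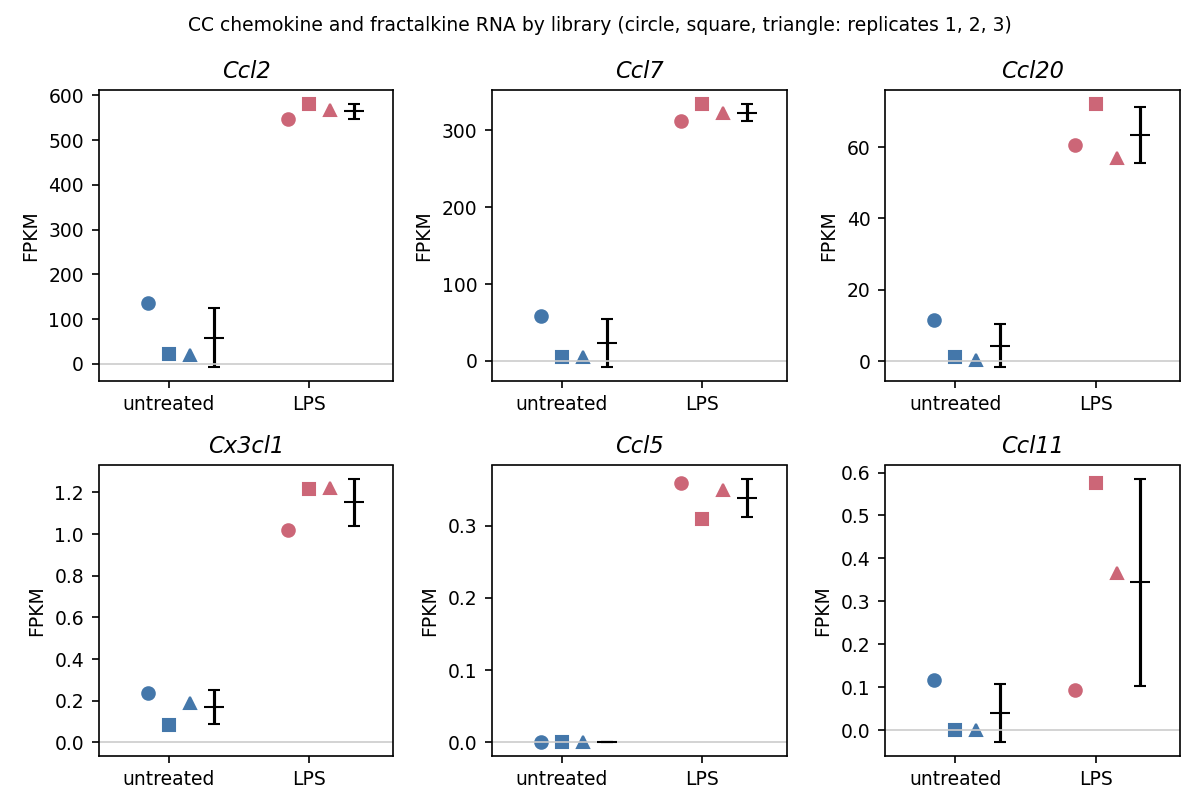
FPKM of 6 chemokine genes in each library, 1 panel per gene with its own linear axis, for untreated (blue) and LPS (red) co-cultures, with circles, squares and triangles for replicates 1, 2 and 3 and black bars for the mean ± SD (n = 3). The LPS points lie above the untreated points for every gene except Ccl11, and untreated replicate 1 (circle) is the highest untreated library for Ccl2 (135 FPKM), Ccl7 (59.1 FPKM) and Ccl20 (11.5 FPKM).

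Ccl2, the main attractant of Ccr2-bearing monocytes, was the most abundant of the genes in every library. Its row (ENSRNOG00000007159) lies on chromosome 10 from 67005424 to 67007226 on the plus strand in mRatBN7.2. The untreated libraries held 135, 21.1 and 19.1 FPKM and the LPS libraries 547, 580 and 568 FPKM for replicates 1 to 3. All LPS values were thus more than the highest untreated value, and untreated replicate 1 was well above its group. Ranked by FPKM among all genes, Ccl2 stood at 291, 2267 and 2526 in the untreated libraries and at 60, 57 and 53 in the LPS libraries. The log2 fold change of Ccl2 was 3.23 ± 0.70 (SE), a 9.37-fold difference with an adjusted p = 0.00728 by edgeR. Only 24 of the tested genes had a larger log2 fold change.

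Ccl7, which also acts through Ccr2 on monocytes, starts 11.0 kb downstream of the Ccl2 start on the same strand (67016446 to 67018303, ENSRNOG00000000239). It stood at 59.1, 4.55 and 4.87 FPKM in the untreated and at 312, 335 and 323 FPKM in the LPS libraries. The LPS libraries lay close together, and the untreated libraries split into 1 high and 2 low values without reaching the LPS range. The log2 fold change of Ccl7 was 3.78 ± 0.91 (SE), or 13.7-fold, with an adjusted p = 0.0116, and 14 tested genes had a larger one.

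Ccl20, the ligand of Ccr6, lies on chromosome 9 from 84388904 to 84391629 on the plus strand (ENSRNOG00000015992). Its FPKM was 11.5, 1.30 and 0.459 in the untreated libraries and 60.7, 72.1 and 57.0 in the LPS libraries. The lowest of the untreated values rests on about 9.75 fragments and the highest on 238. The log2 fold change was 3.79 ± 0.84 (SE), or 13.9-fold, with an adjusted p = 0.0081 by edgeR. It ranked just before Ccl7, with 13 tested genes ahead of it.

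Cx3cl1, fractalkine, lies on the minus strand of chromosome 19 from 10227340 to 10236833 (ENSRNOG00000016326). The untreated libraries held 0.238, 0.083 and 0.19 FPKM, between 7.5 and 22 fragments each, and the LPS libraries 1.02, 1.22 and 1.22 FPKM, between 92.5 and 113 fragments. Here untreated replicate 1 was also the highest of its group, but by far less than for the other 3 genes. Its log2 fold change was 2.69 ± 0.32 (SE), or 6.43-fold, with an adjusted p = 0.000402, the smallest of the 4. Per unit of length, its LPS level of 1.152 ± 0.114 FPKM was a small fraction of the Ccl2 level.

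Ccl5, which attracts T cells and monocytes, lies on chromosome 10 from 68322829 to 68327377 on the minus strand (ENSRNOG00000010906) and was below the expression filter. It was at 0 counts in all 3 untreated libraries and at 0.358, 0.309 and 0.349 FPKM in the LPS libraries, between 8.25 and 9.5 fragments in each. The LPS group held 27.25 fragments in all. Taking 3 fragments over the untreated group as the limit that a count of 0 allows, Ccl5 was at least 8.99-fold higher with LPS if the LPS fragments are taken as exact. The exact 95% interval of the ratio, which allows for the counting error of the LPS fragments too, starts lower, at 6.76. A two-sided exact permutation test on FPKM gave p = 0.1, the smallest that 3 against 3 libraries allow. In the edgeR fit without an expression filter, the adjusted p of Ccl5 was 0.00338. That fit took the count units as deposited, about 4 per fragment, which understates counting error. It was not repeated on counts divided by 4.

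Ccl11, eotaxin, lies in the same cluster as Ccl2 and Ccl7, from 67028328 to 67032926 on chromosome 10 (plus strand, ENSRNOG00000007335), and was also below the filter. Its untreated FPKM was 0.117, 0 and 0, and its LPS FPKM 0.0931, 0.575 and 0.365. LPS replicate 1 was lower than untreated replicate 1, so the groups overlapped. About 3 untreated fragments stood against 22 with LPS, a ratio of 7.26 with an exact 95% interval of 2.18 to 37.9 from counting error alone. The exact two-sided permutation p was 0.2, and the adjusted p in the fit without a filter was 0.199, so the difference did not pass. Among macrophage markers below the filter, Adgre1 stood at 0.0453 ± 0.0414 FPKM in untreated and 0.329 ± 0.0161 FPKM in LPS co-cultures. Itgam stood at 0.00655 ± 0.0113 and 0.0625 ± 0.0156 FPKM (SD, n = 3). Groups were separate for Adgre1, Itgam and Spi1, with LPS higher, and for Ptprc, with LPS lower. Mean FPKM was also higher with LPS for Aif1 and Cd68, without separate groups. It was lower, again without separate groups, for Laptm5, Csf1r, Cx3cr1, Tyrobp, C1qa, C1qb and Trem2. The part of these markers in the Ccl5 and Ccl11 values was not tested. Reads from close relatives (Ccl2, Ccl7, Ccl11 and Ccl12) and from the mouse cells could be shared with these rows, which was not tested either.

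Leaving out untreated replicate 1 raised the fold of the 3 abundant chemokines by well over 1.5 times. Without it, the fold by edgeR went from 9.37 to 27.1 for Ccl2, from 13.7 to 66.0 for Ccl7 and from 13.9 to 68.8 for Ccl20, and for Cx3cl1 only from 6.43 to 7.97. In that fit the log2 fold changes were 4.76 ± 0.058, 6.04 ± 0.065, 6.10 ± 0.24 and 2.99 ± 0.30 (SE) for the 4 genes in that order. On the linear FPKM scale, untreated replicate 1 stood 21.1% of the way from the mean of untreated replicates 2 and 3 to the LPS mean for Ccl2, 17.1% for Ccl7, 17.0% for Ccl20 and 10.05% for Cx3cl1. On the log2(FPKM + 1) scale the same library stood over 50% of the way for Ccl2 (56.7%), Ccl7 (58.3%) and Ccl20 (54.0%) and at 13.6% for Cx3cl1. For the 68 other genes that edgeR called at least 4-fold higher, the median position on the linear scale was 17.4%, with quartiles of 10.3% and 22.3%. Ccl2, Ccl7 and Ccl20 lay between those quartiles and Cx3cl1 just below the lower one. The 68 genes were chosen by a fit that included untreated replicate 1, which limits how near to LPS that library can stand. Their position on the log2 scale was not computed. All 4 calls held on leaving out any 1 library, with a highest adjusted p of 0.0377 for Ccl7 without LPS replicate 2. By limma on log2(FPKM + 1) the log2 fold change of Cx3cl1 was 0.88 (adjusted p = 0.000592), since the added 1 is close to its level, and that of Ccl7 was 4.70 (adjusted p = 0.00405).

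**Figure D2:**
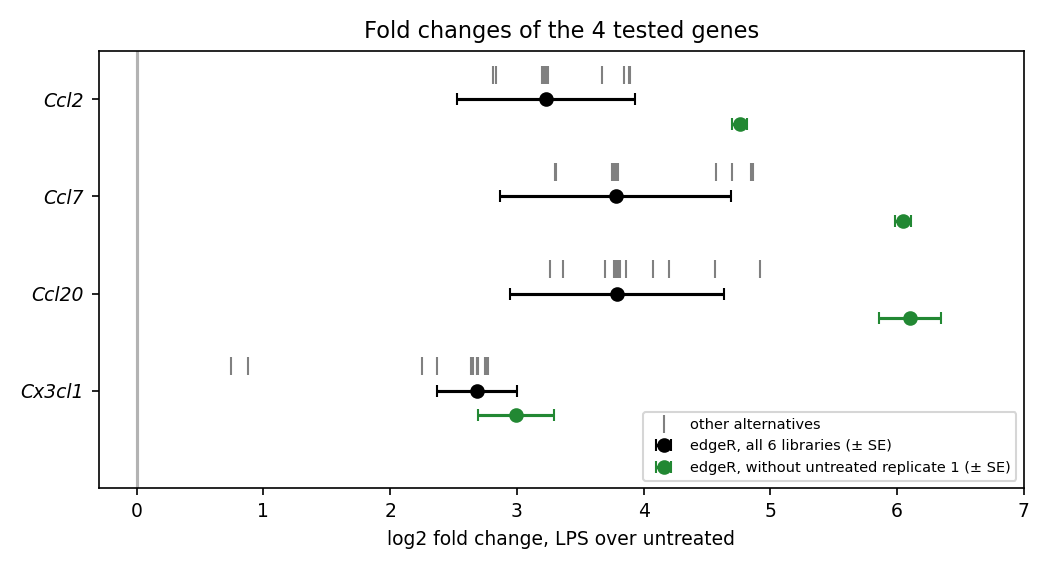
Log2 fold changes, LPS over untreated, of the 4 tested genes, with black points for edgeR on all 6 libraries, green points for edgeR without untreated replicate 1 (bars, ± SE) and grey ticks for the other alternatives. Every estimate lies to the right of 0, the green points of Ccl2, Ccl7 and Ccl20 are farthest right at 4.76, 6.04 and 6.10, and the lowest ticks belong to Cx3cl1 on the log2(FPKM + 1) scale, at 0.74 after quantile normalization and 0.88.

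The order of levels by FPKM was Ccl2, Ccl7, Ccl20 and Cx3cl1 in each of the 6 libraries. In LPS co-cultures these neighbours differed by far more than their spread, while Ccl11 (0.344 ± 0.241 FPKM) and Ccl5 (0.339 ± 0.0262 FPKM, SD, n = 3) did not differ beyond it. In untreated co-cultures the SDs of Ccl2 (58.5 ± 66.5 FPKM), Ccl7 (22.8 ± 31.4) and Ccl20 (4.41 ± 6.13) overlapped because of replicate 1, although the order held within each library. The 15 CC, XC and CX3C ligand genes in the table summed to 208, 27.8 and 25.9 FPKM in the untreated and to 924, 990 and 951 FPKM in the LPS libraries. Ccl2 made up 71.6% ± 5.65 of that sum in untreated and 59.2% ± 0.575 in LPS co-cultures, and Ccl7 21.2% ± 6.40 and 33.9% ± 0.0667 (SD, n = 3).

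The balance between the 2 neighbouring genes shifted towards Ccl7. The ratio of Ccl7 to Ccl2 FPKM was 0.437, 0.216 and 0.254 in untreated replicates 1 to 3 and 0.571, 0.577 and 0.568 in the LPS replicates. The groups did not overlap, and untreated replicate 1 lay between the rest. The ratio of Ccl20 to Ccl2 was 0.0848, 0.0619 and 0.024 in untreated and 0.111, 0.124 and 0.1 in LPS libraries, also without overlap. The ratio of Cx3cl1 to Ccl2, by contrast, was 0.00176, 0.00394 and 0.00991 in untreated libraries and between 0.00187 and 0.00215 with LPS, so these groups overlapped. The ratios are a description, and no test was made of them.

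**Figure D3:**
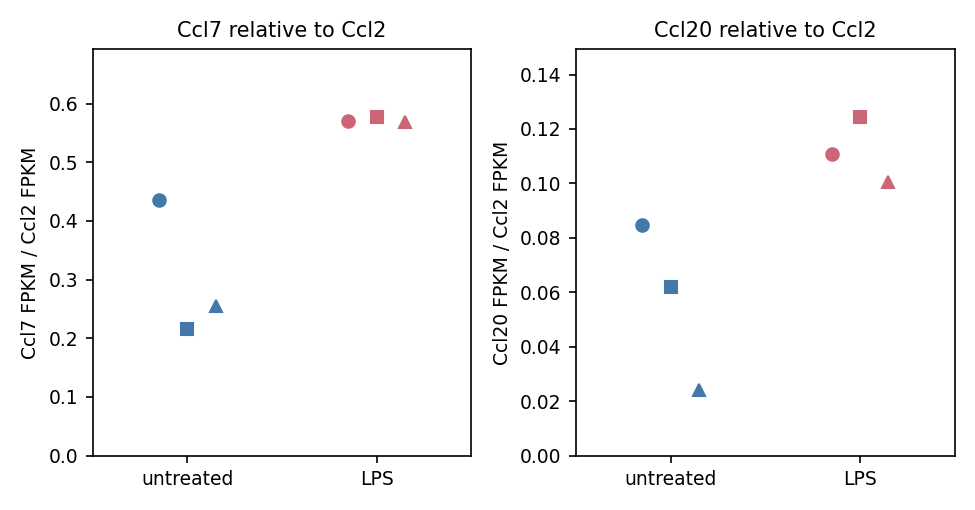
Ratio of Ccl7 to Ccl2 FPKM (left) and of Ccl20 to Ccl2 FPKM (right) in each untreated (blue) and LPS (red) library, with circles, squares and triangles for replicates 1, 2 and 3 and axes that start at 0. The LPS ratios of Ccl7 lie between 0.568 and 0.577 and all untreated ratios lie below them, with replicate 1 the highest at 0.437.

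Among 759 tested genes whose log2(FPKM + 1) ranged over at least 1 unit, profiles scaled from 0 in the lowest to 1 in the highest library were compared by their root mean square difference over the 6 libraries. Of all these genes, the closest to Ccl2 was Ccl7, and the closest to Ccl7 was Ccl2, with a difference of 0.0134. Outside the chemokines, Sgcb, a sarcoglycan subunit (0.0151), Hsd11b1, the enzyme that regenerates active glucocorticoid (0.0211), and complement C3 (0.0224) were most like Ccl2, and Egfl6, C3 and Hsd11b1 most like Ccl7 (0.0189 to 0.0198). C3 stood at 7.79, 0.0778 and 0.0428 FPKM in untreated and at 37.3, 37.2 and 31.0 FPKM in LPS libraries, and did not pass the test (adjusted p = 0.0613). Ndrg2, Stc2 and Glipr1 were most like Ccl20 (0.0198 to 0.0226). Cx3cl1 had a different set of nearest genes, the mitotic kinesin Kif2c (0.0229), the monooxygenase Fmo1 (0.0472) and the lectin Cd302 (0.0501), and its difference from the other 3 chemokines was 0.169 to 0.174. All these profiles share the same 6 libraries, and likeness says nothing of shared control.

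The genes were also set beside their neighbours on the chromosome. Within 250 kb of the start of any of the 6 genes lay 34 other genes of the table, of which 14 were tested, with 1 higher and 2 lower against the background of 20.1% and 19.0%. The adaptor subunit Ap2b1, near Ccl5, rose from 28.4 ± 0.394 to 32.9 ± 1.09 FPKM. The matrix metalloproteinase Mmp28, also near Ccl5, fell from 2.97 ± 0.540 to 1.83 ± 0.0736 FPKM, and Rspry1, near Cx3cl1, from 7.79 ± 0.159 to 6.77 ± 0.136 FPKM (SD, n = 3). The other 11, among them Rasl10b, Taf15, Dok4, Polr2c, Coq9, Ciapin1, Arl2bp, Psme3ip1, Ccdc102a and Cpne2, did not pass, with log2 fold changes from -0.15 to 0.16. Ccl2 and Ccl7 had no neighbour that reached the filter other than each other, and Ccl20, itself tested, had none.

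The other measured CC and XC ligand genes were all low. Of 15 such symbols, 9 were in the table (Ccl1, Ccl3, Ccl4, Ccl6, Ccl9, Ccl12, Ccl17, Ccl27 and Xcl1) and none passed the filter. The highest value in any library was 1.02 FPKM, for Xcl1 in LPS replicate 1. Xcl1 stood at 0.766 ± 0.153 and 0.366 ± 0.570 FPKM and Ccl12, a monocyte attractant of the Ccl2 cluster, at 0.111 ± 0.193 and 0.382 ± 0.206 FPKM in untreated and LPS co-cultures (SD, n = 3). Ccl3 and Ccl4, macrophage inflammatory proteins, stood at 0.0793 ± 0.0784 and 0.0144 ± 0.0250 FPKM in untreated and at 0.345 ± 0.290 and 0.103 ± 0.105 FPKM in LPS co-cultures. They lie on opposite strands and overlap in part, and the strand setting of the counting is not given. The groups overlapped for each of the 9 genes. In the edgeR fit without a filter none of the 9 was called and none had an unadjusted p under 0.05, with a lowest adjusted p of 0.236 by edgeR.

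Of 16 receptor symbols 8 were in the table, and 6 of these lay below the filter. Cx3cr1, the fractalkine receptor, stood at 0.0217 ± 0.0228 and 0.00323 ± 0.00560 FPKM and Ccr7 at 0 and 0.00911 ± 0.00826 FPKM in untreated and LPS co-cultures (SD, n = 3). Ccr10 (0.123 ± 0.0525 and 0.388 ± 0.197 FPKM) had an adjusted p of 0.0766 in the fit without a filter. Ackr4, a scavenger receptor that takes up Ccl19, Ccl21 and Ccl25, rose from 12.1, 8.55 and 10.2 FPKM to 20.3, 20.5 and 21.4 FPKM. The groups did not overlap, and the log2 fold change was 0.96 ± 0.11 (SE, adjusted p = 0.000317). Cmklr1, the chemerin receptor, which is related to chemokine receptors, fell from 2.47 ± 0.968 to 0.709 ± 0.0359 FPKM (adjusted p = 0.00132). These were the 2 tested genes of the list.

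Of 9 proteases that cleave chemokines, all in the table, 7 were tested, of which 6 rose, where 20.1% of all tested genes did, 0 fell and Mmp14 (adjusted p = 0.981) did not pass. The median log2 fold change was 0.60, against 0.00 for all tested genes. Adam17, which sheds fractalkine from stimulated cells, rose from 17.4 ± 1.63 to 27.4 ± 0.485 FPKM (1.52-fold, adjusted p = 0.000272). Adam10, its counterpart in resting cells, rose 1.18-fold (12.6 ± 0.794 to 15.4 ± 0.164 FPKM, adjusted p = 0.0102). The gelatinase Mmp9 rose from 0.872 ± 0.771 to 9.61 ± 1.49 FPKM and the collagenase Mmp13 from 6.08 ± 2.84 to 22.7 ± 1.45 FPKM, 10.6-fold and 3.61-fold. The stromelysin Mmp3 rose 24.4-fold. Without untreated replicate 1 the fold was 21.6 for Mmp9 and 37.5 for Mmp3. Dpp4, which trims Ccl5 and Ccl11, was below the filter at 0.192 ± 0.0326 and 0.0725 ± 0.0515 FPKM.

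Heparan sulfate holds secreted chemokines at the cell surface. Of 15 of its core proteins and enzymes that were tested, 5 rose, 5 fell and 5 did not pass, against 20.1% higher and 19.0% lower over all tested genes, and the median log2 fold change was -0.06. The fall of syndecan 3 (Sdc3, adjusted p = 0.0184) did not pass in 5 of 16 alternatives, the fits that omitted untreated replicate 2 or 3 or 1 of the LPS replicates (up to 0.0651). The sulfatase Sulf1, which removes sulfate groups from the chains, rose from 29.4 ± 9.07 to 75.7 ± 0.535 FPKM (2.49-fold, adjusted p = 0.000667). The sulfotransferase Hs6st1, which adds them, rose 2.12-fold and syndecan 4 (Sdc4) 1.75-fold. Glypican 1 (Gpc1) fell from 392 ± 25.3 to 213 ± 4.34 FPKM (1.901-fold lower, adjusted p = 4.15e-05).

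Of 9 tested genes of the LPS receptor and its adaptors, 1 rose (background 20.1%) and 8 did not pass, and the median log2 fold change was 0.09. The co-receptor Cd14 rose from 8.23 ± 1.26 to 11.0 ± 1.04 FPKM (1.29-fold, adjusted p = 0.0412), a call lost in 7 of 16 alternatives, including leaving out untreated replicate 2 or 3 or any 1 LPS replicate (up to 0.148). The LPS-binding protein Lbp stood at 37.0 ± 8.69 and 48.9 ± 2.57 FPKM (adjusted p = 0.0726), and passed without untreated replicate 1 (1.16e-05). The receptor Tlr4 itself stood at 1.05 ± 0.178 and 1.18 ± 0.00276 FPKM (adjusted p = 0.593), with overlapping groups.

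NF-kB genes rose in 8 of 10 tested cases, where 20.1% of all tested genes did, and 0 fell, and the median log2 fold change was 0.64. 1 of the 8 calls, that of the inhibitor Nfkbib (adjusted p = 0.0414), did not pass in 8 of 16 alternatives, among them each fit that omitted untreated replicate 2 or 3 or 1 of the LPS replicates (up to 0.130). The inhibitor Nfkbia (IkB alpha) rose from 6.47 ± 2.52 to 19.1 ± 2.62 FPKM (2.86-fold, adjusted p = 0.00147), the coactivator Bcl3 2.81-fold and the subunit Relb 1.84-fold. Tnfaip3 (A20), a feedback brake, rose from 0.806 ± 0.274 to 2.64 ± 0.203 FPKM. The subunit Rela stood at 22.2 ± 0.788 and 22.8 ± 0.357 FPKM (adjusted p = 0.916).

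Of 12 other tested transcription factors known from chemokine promoters, 5 rose and 3 fell (background 20.1% and 19.0%), with a median log2 fold change of -0.18. Cebpb rose from 31.9 ± 11.7 to 88.7 ± 3.96 FPKM (2.69-fold, adjusted p = 0.00106) and Cebpd from 53.1 ± 22.3 to 136 ± 8.01 FPKM (2.48-fold). Irf1, an interferon regulatory factor, rose from 3.72 ± 0.489 to 5.77 ± 0.519 FPKM. The stress-induced repressor Atf3 fell from 19.2 ± 0.972 to 6.43 ± 1.72 FPKM (3.10-fold lower, adjusted p = 0.000211). The AP-1 subunits Fos (233 ± 46.5 and 173 ± 79.3 FPKM) and Jun (53.3 ± 3.904 and 41.9 ± 10.6 FPKM) did not pass, with adjusted p of 0.253 and 0.0739. Other AP-1 subunits of the list were called by edgeR, in both directions. Fosl1 and Fosl2 rose, with log2 fold changes of 0.378 and 0.438 (adjusted p = 0.00406 and 0.00606). Jund fell, with a log2 fold change of -0.258 (adjusted p = 0.0104).

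Of 7 tested factors that control the decay of chemokine and cytokine mRNA, 3 rose (background 20.1%) and 4 did not pass, and the median log2 fold change was 0.05. The RNase Zc3h12a (regnase-1) rose from 9.35 ± 4.30 to 30.0 ± 2.45 FPKM (adjusted p = 0.00163). Auh, an AU-rich RNA-binding protein of the mitochondrion, rose 1.33-fold. Zfp36l1, which binds AU-rich elements, rose 1.38-fold (adjusted p = 0.0182), a call lost in 5 of 16 alternatives, including leaving out untreated replicate 2 or 3 or LPS replicate 1 or 3 (up to 0.0623).

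**Figure D4:**
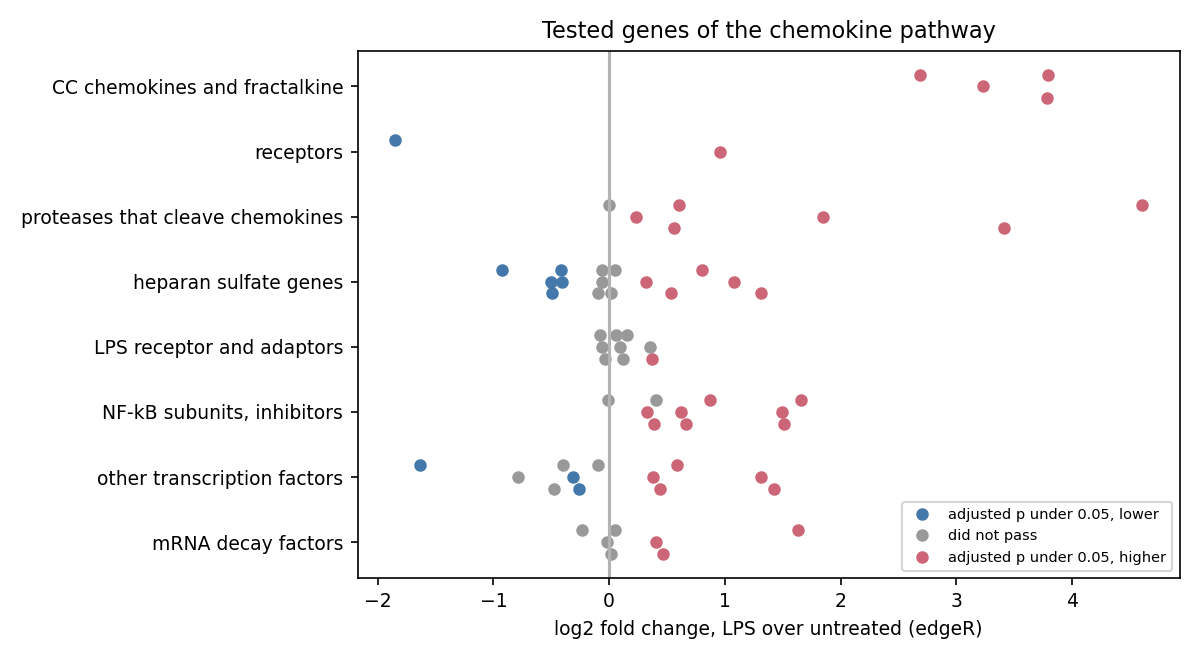
Log2 fold change, LPS over untreated, by edgeR for each tested gene of the chemokine genes and of 7 lists around them, with red for adjusted p under 0.05 and higher, blue for lower and grey for not passed. The 4 chemokine points lie between 2.69 and 3.79, the LPS receptor genes cluster near 0, and the heparan sulfate genes spread to both sides.

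The chemokine that marrow stromal cells are best known for, Cxcl12, was among the 13 stromal markers, of which 12 were tested, 7 rose and 4 fell (background 20.1% and 19.0%). It rose from 20.4 ± 12.8 to 140 ± 2.199 FPKM (6.64-fold, adjusted p = 0.000706), or 10.3-fold without untreated replicate 1. The growth factor receptor Pdgfra and the ectonucleotidase Nt5e (CD73) rose 2.90-fold and 2.73-fold, while the collagen gene Col1a2 fell from 8032 ± 560 to 5412 ± 100.03 FPKM (1.54-fold lower), a call lost after quantile normalization (adjusted p = 0.083).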

How the data were processed

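The submitters' processing notes name build mRatBN7.2 and the tools HISAT2 2.2.1, StringTie 2.1.6 and cutadapt 1.9, besides edgeR and DESeq2. How counts were derived, and on which strand, is not given in the sources used here. The deposited table holds FPKM, scaled by the authors, and estimated counts, which had not been normalized. Multiples of 4 made up 31.9% to 32.9% of counts from 1 to 40 (25% by chance), so 1 fragment was taken as 4 units. Many counts are not multiples of 4, and this factor is an assumption that was not checked. All fragment numbers rest on it, as do the depth and the bound and intervals given for Ccl5 and Ccl11.

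The members and lists were chosen with earlier results of these data known. edgeR 4.0.16 (trimmed-mean factors, quasi-likelihood test, tested on simulated data) was fitted with group as the only term. It used the counts of all 11559 genes with FPKM of at least 1 in 3 libraries. In the simulated counts every gene had the same dispersion and no library stood apart. An outlying library such as untreated replicate 1 was therefore not covered by that check. SEs were obtained as the fold change on the log2 scale over the root of its F value. limma 3.58.1 and DESeq2 1.42.0 served as alternatives, in R 4.3.3, and scipy 1.17.1 gave exact tests and intervals, which cover counting error only.

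Named genes were all members, up to 4 called genes per list with the largest change and mean FPKM of at least 1 (with fewer than 2 calls, the most abundant), receptors with mean FPKM of at least 0.5, tested neighbours within 250 kb, and the 3 most like profiles per tested member. Some genes that this rule takes are not reported here. Other genes named for contrast were chosen after their values were seen. The planned comparison of protein sequences was not made here.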

Additional observations from a re-analysis of the deposited data

How the results depend on the processing

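The 16 alternatives were other normalizations (RLE factors, library sizes without the 50 most abundant genes), DESeq2, 3 limma fits on FPKM, other expression filters, counts divided by 4, the replicate block and leaving out each library. Ccl2, Ccl7 and Ccl20 were called higher in all 16 and Cx3cl1 in the 15 that tested it. Their log2 fold changes ranged from 2.82 to 4.76 for Ccl2, 3.30 to 6.04 for Ccl7, 3.26 to 6.10 for Ccl20 and 0.74 to 2.99 for Cx3cl1. The number of these genes called was 4 except with the filter at 5 FPKM (3, Cx3cl1 not tested) and with no filter (5, Ccl5 added). That Ccl5 call was made on the deposited count units and not on fragments. Calls over all genes ran from 3405 to 5054 on leaving out 1 library, against 4524. With the replicate block, 4184 genes were called and the log2 fold change was 4.85 for Ccl7, 3.89 for Ccl2 and 4.56 for Ccl20. Deviations of same-numbered libraries correlated at 0.0689, 0.0846 and 0.125 across genes, and each library correlated best with its own number, a hint from the data and not from the design. Below about 10 fragments per library, as for Ccl5 and, in most libraries, Ccl11, counting error limits the comparison. The called genes Ccl20 (untreated replicate 3, 9.75 fragments) and Cx3cl1 (untreated replicate 2, 7.5 fragments) also had such a library.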
